A study of Mus musculus with 6 samples.

Results

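Mammals carry Hox genes in 4 clusters, named A to D, on 4 chromosomes. They encode homeodomain transcription factors, and within a cluster the genes follow one another in the order in which they act along the body axis. Genes of the low paralogue groups, at the 3′ end, pattern the head and neck, genes of the middle groups the trunk, and genes of the high groups, at the 5′ end, the lumbar region, the limbs and the tail. Adult skin keeps part of this positional code, best known from dermal fibroblasts. Here the code was read in sorted epidermal stem cells of mouse back skin. All 39 rows of the deposited count matrix whose symbol is Hox, a cluster letter and a number were taken, out of 24982 rows in all. They comprise 11 Hoxa, 10 Hoxb, 9 Hoxc and 9 Hoxd genes.

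Poly(A) RNA was sequenced from 6 libraries, 3 from the denervated left side and 3 from the normal right side of the back of the same 3 mice, numbered 890, 892 and 899. Every mouse, on both sides, carried an Lgr6-EGFP-Ires-CreERT2 knock-in and the R26loxP-stop-loxP-tdTom reporter, and received 20 µg of tamoxifen on postnatal day 42. Tomato-labelled cells, that is, cells in which the Lgr6 promoter had driven Cre and their descendants, were stained for CD49f (Itga6) and isolated 4 weeks after surgery. On the left, cutaneous nerves of thoracic levels T3 to T12 had been dissected out. On the right they were left in place, and the labels mention no sham dissection, so effects of nerve loss, of the operation and of the body side cannot be told apart. The sorted keratinocytes carried their defining markers, with Krt5 at 19818 ± 2063 CPM (counts scaled to library size with TMM factors) on the denervated and 19578 ± 703 CPM on the normal side (SD, n = 3 each), and none of Krt5, Krt14, Itga6 and Lgr6 passed the test described below. Library totals ran from 9610071 to 14021730 counts on the denervated and from 13801154 to 26167593 counts on the normal side. Depending on the library, 3 counts equal 0.115 to 0.312 CPM, a limit that covers counting error alone. The denervated library of animal 890 was the shallowest and lay far from the rest in a principal component analysis, scoring −37.6 on the leading axis, where the other 5 libraries scored between −9.73 and 24.5.

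The clusters lie on chromosome 6 (Hoxa, 52155590 to 52260880), chromosome 11 (Hoxb, 96194316 to 96368256), chromosome 15 (Hoxc, 102921103 to 103036852) and chromosome 2 (Hoxd, 74668310 to 74765142) of the mm10 assembly. To show what transcribed and silent parts of a cluster look like in sequence, the 250 bases before the annotated start are given. An expressed and a silent gene each of the Hoxa and the Hoxb cluster are shown, from RefSeq (GRCm38.p6), 5′ to 3′ on the gene's strand. Capitals mark CG dinucleotides.
Hoxa5, expressed, chr6:52204588-52204837, minus strand: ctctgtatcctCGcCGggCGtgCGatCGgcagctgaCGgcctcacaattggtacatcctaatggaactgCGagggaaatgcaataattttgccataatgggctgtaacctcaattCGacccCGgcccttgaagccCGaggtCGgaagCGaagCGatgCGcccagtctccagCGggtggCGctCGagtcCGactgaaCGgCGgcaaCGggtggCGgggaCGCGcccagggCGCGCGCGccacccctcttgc
Hoxa11, 0 counts, chr6:52245811-52246060, minus strand: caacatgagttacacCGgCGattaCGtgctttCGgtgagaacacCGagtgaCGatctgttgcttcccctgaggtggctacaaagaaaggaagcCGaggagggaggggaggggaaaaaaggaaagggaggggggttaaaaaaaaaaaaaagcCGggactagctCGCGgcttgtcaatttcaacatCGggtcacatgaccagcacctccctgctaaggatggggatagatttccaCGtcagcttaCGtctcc
Hoxb8, expressed, chr11:96281655-96281904, plus strand: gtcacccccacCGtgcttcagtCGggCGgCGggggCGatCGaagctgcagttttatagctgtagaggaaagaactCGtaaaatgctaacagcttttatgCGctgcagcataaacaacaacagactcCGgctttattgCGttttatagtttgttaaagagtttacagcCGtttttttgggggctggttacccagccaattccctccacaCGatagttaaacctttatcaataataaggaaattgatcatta
Hoxb1, at or under 3 counts, chr11:96365508-96365757, plus strand: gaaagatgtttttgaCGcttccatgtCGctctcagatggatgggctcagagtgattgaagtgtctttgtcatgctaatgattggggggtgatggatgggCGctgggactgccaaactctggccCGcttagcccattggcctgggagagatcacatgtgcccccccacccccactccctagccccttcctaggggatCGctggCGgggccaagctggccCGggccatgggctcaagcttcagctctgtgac

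These stretches held 28 CG dinucleotides in Hoxa5, 13 in Hoxa11, 12 in Hoxb8 and 7 in Hoxb1, against a median of 6 over all 32851 RefSeq promoters of that length. The table gave 24 promoters for 22 Hox genes. Their CG counts ranged from 7 to 28, with a median of 14, in the 7 promoters of genes expressed here. In the 17 others they ranged from 2 to 35, with a median of 12, so the ranges overlapped. The Hox-Pbx recognition motif TGATNNAT, searched on both strands, occurred in 4 of the 24 promoters, Hoxb8 and Hoxb1 among them, and in 7.68% of all promoters.

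On both sides of the back, the sorted cells expressed Hoxa3 to Hoxa7, Hoxb2 to Hoxb8 except Hoxb5, and Hoxc4 to Hoxc8. The Hoxd cluster was almost silent, and toward the 3′ ends Hoxa2 and Hoxb1 did not meet the rule that follows. With expression set at a TPM (a level scaled to library size and transcript length) of at least 1 in every library, 15 of the 39 genes were expressed, 5 Hoxa, 6 Hoxb, 4 Hoxc and no Hoxd genes. Another 6 genes, Hoxa2, Hoxa9, Hoxb5, Hoxb9 and Hoxc13 among them, fell below 1 TPM in at least 1 library but had enough counts to be tested. Of the remaining 18 genes, Hoxc10, Hoxd4, Hoxd8 and Hoxd9 passed 3 counts in some library, and 14 did not in any: Hoxa10, Hoxa11, Hoxa13, Hoxb1, Hoxb13, Hoxc9, Hoxc11, Hoxc12, Hoxd1, Hoxd3, Hoxd10, Hoxd11, Hoxd12 and Hoxd13. Among these 14, 8 had 0 counts in all 6 libraries. At this depth that allows a level of up to 0.312 CPM in the shallowest and 0.115 CPM in the deepest library. A threshold of 5 TPM left 5 genes, and leaving out animal 890 gave 19 at 1 TPM. Hoxb9 missed the rule only in animal 890, at 0.582 TPM on the denervated and 0.963 TPM on the normal side. In the other animals Hoxb9 stood at 4.63 to 5.35 TPM. Hoxa2 and Hoxb5 missed the rule only in the denervated library of animal 890, at 0.815 and 0.928 TPM.

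**Figure D1:**
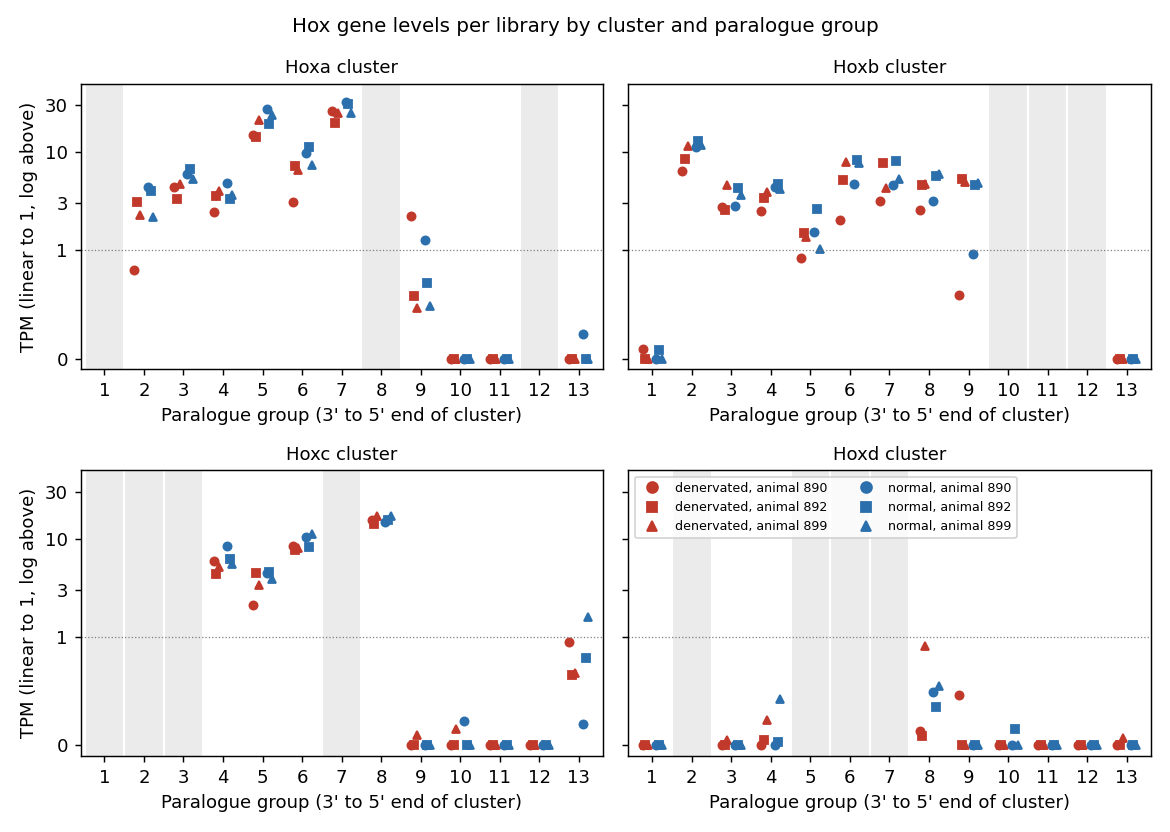
TPM of each Hox gene (vertical axis, linear to 1 and logarithmic above) by paralogue group (horizontal axis), with a panel for each cluster and a point for each library (red denervated, blue normal; circle, square and triangle for animals 890, 892 and 899). Grey bands mark groups with no gene plotted, and the dotted line marks 1 TPM. Levels drop at the 5′ end, in Hoxa from about 26.6 TPM for Hoxa7 to 0 for Hoxa10 and in Hoxc from 15.7 TPM for Hoxc8 to 0.0165 TPM for Hoxc9 (means of 6 libraries).

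The most abundant member was Hoxa7, a gene of trunk identity that in human keratinocytes is known to restrain differentiation genes (chromosome 6, 52214491 to 52221854, minus strand). In the order of animals 890, 892 and 899, here and below, Hoxa7 stood at 26.1, 19.7 and 25.3 TPM in the denervated libraries, against 32.3, 31.2 and 25.2 TPM in the normal libraries. The normal library of animal 899 lay within the denervated range. Its mean over 6 libraries exceeded that of 55.3% of the 11099 genes with at least 1 TPM in every library. The median over those genes was 22.7 TPM, so Hoxa7 alone among Hox genes lay above it. Hoxa5, which patterns the neck and upper thorax and the lung (52201754 to 52204587, minus strand), followed with 15.1, 14.3 and 21.1 TPM in denervated and 27.8, 19.3 and 24.0 TPM in normal libraries. Hoxa6, its neighbour and also a gene of the thoracic region, stood at 3.06, 7.14 and 6.54 TPM in denervated and 9.87, 11.2 and 7.30 TPM in normal libraries. The lowest Hoxa6 value lay in the denervated library of animal 890. Its estimated counts were 0.807 times its raw counts, the lowest ratio among the tested Hox genes, whose median was 0.992.

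Hoxa3, needed for thymus and parathyroid formation, stood at 4.42, 3.28 and 4.75 TPM in denervated libraries, against 5.95, 6.77 and 5.34 TPM in normal libraries. All 3 denervated values lay below all 3 normal values. Hoxa4 stood at 2.43, 3.54 and 4.01 TPM in denervated and 4.82, 3.29 and 3.64 TPM in normal libraries, and the sides overlapped. At the 3′ end, the hindbrain gene Hoxa2 ranged from 0.815 to 3.12 TPM on the denervated side, against 2.19 to 4.44 TPM on the normal side. Hoxa9, which with its paralogues sets rib identity, was the last transcribed gene of the cluster, at 2.21, 0.574 and 0.462 TPM in denervated and 1.26, 0.694 and 0.483 TPM in normal libraries. Hoxa9 was highest in animal 890 on both sides. Beyond it, Hoxa10 and Hoxa11, genes of lumbar, limb and uterine patterning, had 0 counts, and Hoxa13, a gene of digits and genitalia, had at most 2 counts in a library.

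In the Hoxb cluster, levels were flatter along the chromosome. Hoxb2, a hindbrain gene, was the most abundant, at 6.46, 8.51 and 11.4 TPM in denervated libraries, against 11.2, 13.0 and 11.8 TPM in normal libraries. Only the denervated library of animal 899 reached into the normal range. Hoxb6 stood at 2.03, 5.19 and 7.86 TPM in denervated and 4.76, 8.20 and 7.66 TPM in normal libraries, and Hoxb7 at 3.15, 7.67 and 4.32 TPM in denervated and 4.56, 8.08 and 5.27 TPM in normal libraries. Hoxb8, known in mice for its role in microglia and grooming behaviour, stood at 2.55, 4.63 and 4.66 TPM in denervated and 3.13, 5.73 and 5.91 TPM in normal libraries. For these 3 genes the lowest value on each side lay in animal 890. Hoxb4, known for expanding blood stem cells, stood at 2.51, 3.36 and 3.92 TPM in denervated libraries, against 4.35, 4.72 and 4.18 TPM in normal libraries, without overlap. Hoxb3 stood at 2.74, 2.55 and 4.57 TPM in denervated and 2.84, 4.33 and 3.67 TPM in normal libraries, and Hoxb5 ranged from 0.928 to 1.48 TPM in denervated and from 1.01 to 2.61 TPM in normal libraries. In Hoxb3 and Hoxb2, 52.9% and 27.3% of the exonic bases lie opposite the antisense gene Hoxb3os, whose reads could enter both if the counting did not use strand. Hoxb3os itself had 8 to 24 counts in a library. Hoxb1, the gene of rhombomere identity at the 3′ end, had at most 2 counts in a library, and Hoxb13, a gene of the tail and prostate, had 0 counts in all.

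The Hoxc cluster showed the sharpest step. Hoxc8, which patterns thoracic vertebrae and their motor neurons (chromosome 15, 102990607 to 102994111, plus strand), stood at 15.5, 14.1 and 16.9 TPM in denervated libraries, against 14.8, 15.6 and 17.1 TPM in normal libraries. The next gene toward the 5′ end, Hoxc9 (102976439 to 102985099), lies 5508 bases away and had a single count in the denervated library of animal 899 and 0 in the other 5 libraries. The remaining expressed genes of the cluster are patterning genes of the neck and upper trunk. Hoxc6 stood at 8.51, 7.69 and 7.99 TPM in denervated and 10.5, 8.15 and 11.3 TPM in normal libraries. Hoxc4 stood at 5.92, 4.34 and 5.12 TPM in denervated and 8.44, 6.20 and 5.53 TPM in normal libraries. Hoxc5 stood at 2.12, 4.50 and 3.39 TPM in denervated and 4.49, 4.54 and 3.91 TPM in normal libraries. For each of these 3 genes the sides overlapped. Hoxc5 and Hoxc10 share 166 exonic bases on the same strand in GENCODE M21, and reads from those bases cannot be assigned to either. Hoxc10 had at most 6 counts in a library. Hoxc13, a regulator of hair keratin genes in the follicle, was the sole tested gene of groups 10 to 13 and had 9 to 11 counts in denervated and 6 to 26 counts in normal libraries. The 9 Hoxd genes summed to 59 counts over all 6 libraries, with at most 10 in a single gene and library.

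Summed over all 39 genes, Hox TPM came to 110, 123 and 145 in the denervated libraries, against 162, 165 and 154 in the normal libraries. Every denervated sum lay below every normal sum, with the gap narrowest in animal 899. The Hoxa cluster gave 46.3 ± 3.60% of the sum on the denervated and 49.2 ± 5.33% on the normal side, Hoxb 26.8 ± 6.63% and 26.8 ± 5.50%, and Hoxc 26.4 ± 3.29% and 23.6 ± 2.11% (SD, n = 3 each). The Hoxb share was lowest in animal 890 on both sides, at 19.2% on the denervated and 20.6% on the normal side, and lay between 28.7% and 31.4% in the other 4 libraries.

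**Figure D2:**
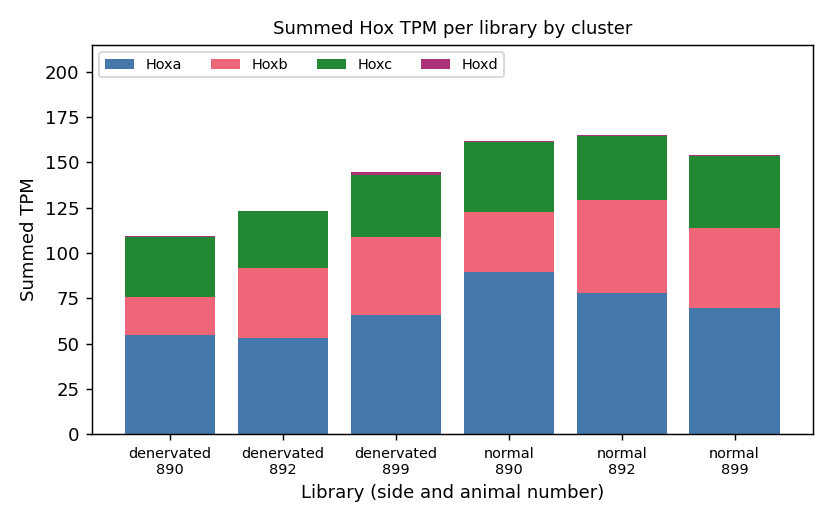
Summed TPM of the Hox genes (vertical axis) in each library (horizontal axis, side and animal number), stacked by cluster. The 3 denervated libraries sum to 110 to 145 TPM and the 3 normal libraries to 154 to 165 TPM, and the Hoxd cluster is hardly visible.

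The sides were compared to ask how cells of the Lgr6 lineage depend on cutaneous nerves. Most Hox mRNAs had lower values on the denervated side, but no Hox gene passed the test. With each animal's sides compared (edgeR quasi-likelihood test with the animal as block, Benjamini-Hochberg adjustment over 12310 genes), 0 of the 21 tested Hox genes passed an adjusted p of 0.05, where 3.46% of all tested genes did, and 0.577% as lower. The smallest adjusted p of a Hox gene was 0.0845. Limma on log2(TPM + 1) and edgeR without the animal called 0 Hox genes, with 4 and 2 at an unadjusted p below 0.05. Over all genes these fits called only 1 and 0, so their 0 Hox calls say little. DESeq2 called 0 as well, with 2 at an unadjusted p below 0.05, but gave an adjusted p to 1 of the 21. In bulk RNA, fewer cells expressing a gene and less RNA per cell cannot be told apart.

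The fitted log2 fold change (denervated over normal) was below 0 for 19 of the 21 genes, or 90.5%, against 54.7% of all tested genes (18 with DESeq2 size factors and 20 with library totals, which moved the median of all genes to −0.09). Its median was −0.34, against −0.02 over all tested genes. Among the 6003 tested genes in the Hox genes' own range of mean CPM (0.964 to 28.7), 65.2% were below 0, with a median of −0.09. The Hox genes that passed the filter on low counts are not all Hox genes, and neighbours in a cluster are not independent of each other. At an unadjusted p below 0.05, 5 Hox genes were lower (23.8%, against 7.86% of all tested genes and 8.88% of genes in that CPM range) and none higher. In either direction together, 18.2% of all tested genes had such a p. Lower levels in every animal were found for 12 of the 21 (57.1%, against 21.4% of all and 26.2% of genes in that CPM range). In 2 genes, Hoxa3 and Hoxb4, all denervated CPM values lay below all normal values (9.52%, against 9.21% of all tested genes), which is the background share.

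The 5 genes with the smallest p were 4 of the Hoxa cluster and Hoxb2. Hoxa5 stood at 13.0, 12.1 and 16.8 CPM in denervated libraries, against 22.2, 16.4 and 19.6 CPM in normal libraries. Only the denervated value of animal 899 exceeded a normal one. The log2 fold change of Hoxa5 was −0.48 ± 0.14 SE (unadjusted p = 0.00481, adjusted p = 0.0845, edgeR), lower in 3 of 3 animals. Hoxa3 stood at 5.73 ± 0.882 CPM on the denervated and 8.68 ± 1.37 CPM on the normal side (SD, n = 3), a log2 fold change of −0.60 ± 0.21 SE with adjusted p = 0.132 in edgeR. Reads from the antisense genes Hoxaas2 and Hoxaas3 could enter Hoxa3, with 8.36% and 4.94% of its exonic bases shared, if the counting did not use strand. Those antisense genes had at most 9 and 4 counts in a library. Hoxb2 had a log2 fold change of −0.47 ± 0.19 SE, Hoxa7 of −0.30 ± 0.12 SE and Hoxa6 of −0.70 ± 0.29 SE, with adjusted p = 0.202, 0.223 and 0.225 in edgeR. Of the exonic bases of Hoxa7, 20.4% lie opposite Hoxaas3. All 3 were lower in 3 of 3 animals, though the differences of animal 899 were small, at −0.08 for Hoxb2, −0.025 for Hoxa7 and −0.07 for Hoxa6. Without animal 890 the log2 fold change of Hoxa6 was −0.32, and without animal 892 that of Hoxa7 was −0.10 and that of Hoxa3 −0.33.

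Among the more abundant members, Hoxc8 averaged 19.0 ± 1.28 CPM in denervated and 19.0 ± 1.71 CPM in normal libraries, with a log2 fold change of −0.0019 ± 0.13 SE, whose sign turned with several settings. That gene had about the same precision as Hoxa7 and Hoxa5. Hoxb9 (0.044 ± 0.23 SE) and Hoxa9 (0.34 ± 0.42 SE) were the 2 tested genes with a fitted value above 0, with adjusted p = 0.942 and 0.722 in edgeR. Without animal 892 the first turned to −0.11, and without animal 890 the other turned to −0.1. By cluster, the median log2 fold change was −0.47 over 8 tested Hoxa genes, −0.35 over 8 Hoxb genes and −0.25 over 5 Hoxc genes. Whether the clusters differ was not tested.

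The size of the difference went with the animal. Animal 890 had a median log2 difference over the 21 Hox genes of −0.48, animal 892 of −0.37 and animal 899 of −0.09, where the medians of all tested genes were −0.016, −0.0074 and −0.013. The number of Hox genes below 0 was 17, 17 and 15, against 51.9%, 51.3% and 52.5% of all tested genes. The gap in depth between the sides fell in the same order of animals. Denervated and normal totals were 9610071 and 26167593 counts in animal 890, and 14021730 and 20724439 in animal 892. In animal 899 they were 13232950 and 13801154. The part of depth in these differences was not tested. Without animal 899, edgeR called 2 Hox genes, Hoxa5 (−0.61, adjusted p = 0.0297) and Hoxa3 (−0.80, adjusted p = 0.0421). Leaving out that animal also raised the genes called in all to 976, against 426 with every animal kept. Without animal 890 or 892, edgeR called no Hox gene, and 385 and 248 genes in all. The most negative single differences, −2.22 for Hoxa2 and −1.60 for Hoxa6, both came from animal 890, whose denervated library held 7 counts of Hoxa2 and 17 of Hoxa6. In the authors' deposited table of the same comparison, 19 of these 21 genes had a negative log2 fold change, though not the same 19. There Hoxa9 (0.22) and Hoxc13 (0.18) were above 0, and Hoxb9 (−0.049) was below 0. Only Hoxa7 had an adjusted p in that table, 0.415.

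**Figure D3:**
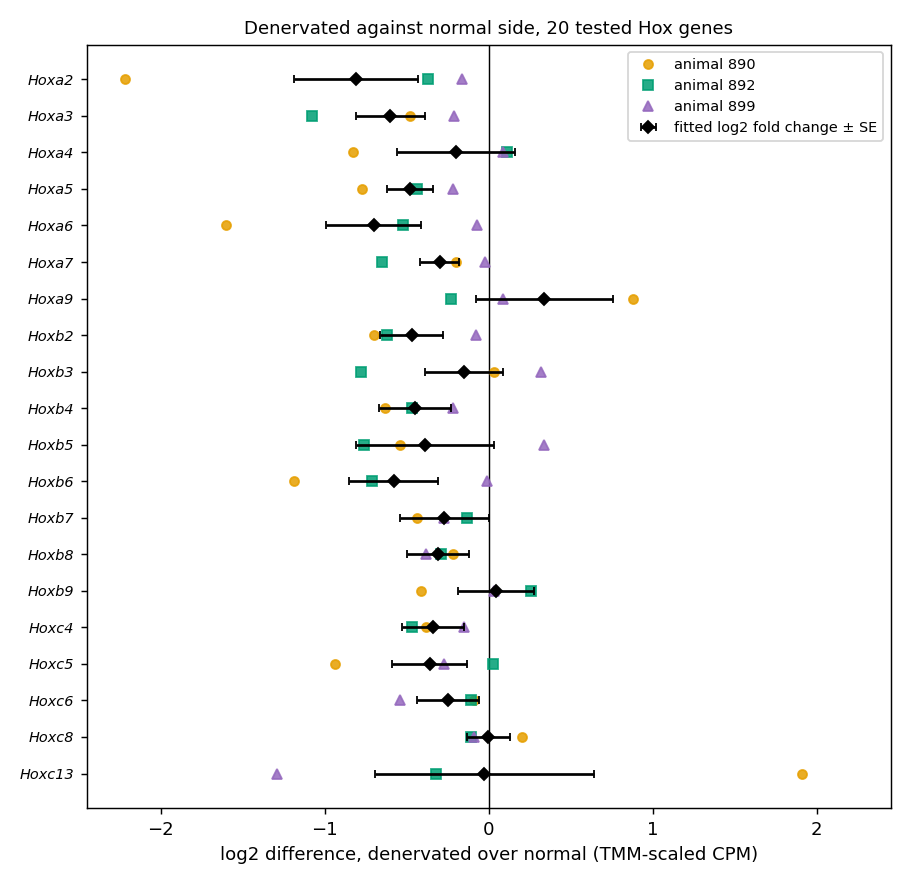
Log2 difference of denervated over normal (horizontal axis, TMM-scaled CPM) for 20 of the 21 tested Hox genes (rows). Black diamonds show the fitted value with its standard error, and coloured points the 3 animals. Most diamonds lie between −0.81 and 0, and the points of animal 899 lie closest to 0 for most Hoxa genes.

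The same fit also allowed the animals to be compared, though with no replicate of a side within an animal. A test of the animal terms together called 1 of the 21 Hox genes, where 3.79% of all tested genes were called, so the count is near the background share. That gene was Hoxb9 (chromosome 11, 96271457 to 96276595, plus strand), which held 11, 114 and 90 counts in the denervated and 43, 148 and 94 counts in the normal libraries. This came to 1.18, 8.28 and 6.88 CPM in denervated and 1.61, 6.91 and 6.72 CPM in normal libraries. Both libraries of animal 890 were thus far below all 4 others, and each animal's sides were close to each other (adjusted p = 0.00107, edgeR).

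Its neighbours among the Hox genes did not pass that test. Hoxb8 averaged 4.08, 7.54 and 7.32 CPM in the 3 animals, Hoxb6 2.37, 5.21 and 5.76 CPM, and Hoxb7 2.30, 4.87 and 2.80 CPM, each lowest in animal 890. Their adjusted p between animals was 0.0883, 0.0946 and 0.157 in edgeR, and with no filter on low counts all 3 were called along with Hoxb9. Hoxa9 went the other way, with 2.88, 1.12 and 0.814 CPM, highest in animal 890 (adjusted p = 0.140). These were the 5 Hox genes with an unadjusted p below 0.05 between animals (23.8%, against 15.5% of all tested genes). Toward the 3′ end of the cluster, Hoxb2 (6.82, 8.78 and 8.82 CPM), Hoxb3 (4.90, 6.18 and 7.16 CPM) and Hoxb4 (4.42, 5.30 and 5.23 CPM) were lowest in animal 890 too, and Hoxb5 (1.22, 2.09 and 1.15 CPM) in animal 899. Their adjusted p between animals was 0.593, 0.549, 0.823 and 0.556 in edgeR, and whether the ends of the cluster differ in this was not tested.

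**Figure D4:**
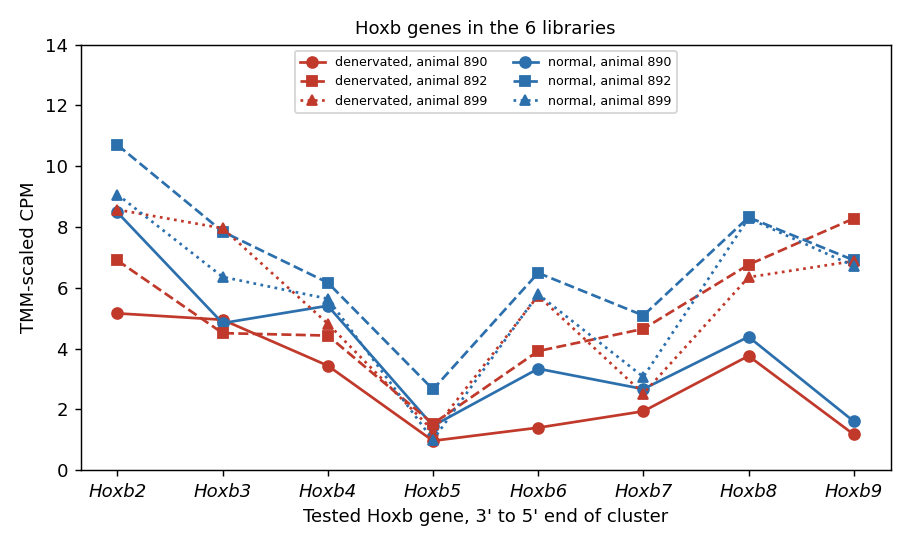
TMM-scaled CPM (vertical axis) of the tested Hoxb genes, in order from the 3′ to the 5′ end of the cluster (horizontal axis), with a line for each library (red denervated, blue normal; circle, square and triangle for animals 890, 892 and 899). At Hoxb9 both libraries of animal 890 lie at 1.18 and 1.61 CPM and the other 4 between 6.72 and 8.28 CPM.

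Transcripts from the noncoding part of the same stretch were lower in animal 890 as well. Between Hoxb13 and Hoxb9 lie the lincRNA gene Gm53 (96251105 to 96264868, plus strand) and the microRNA gene Mir196a-1. Gm53 stood at 0.861, 3.56 and 2.37 CPM in denervated and 0.901, 4.35 and 2.64 CPM in normal libraries (adjusted p = 0.0216 between animals, edgeR). Mir196a-1 had 0, 7 and 8 counts in denervated and 1, 12 and 5 counts in normal libraries, too few to be tested. Poly(A) libraries do not measure the mature microRNA. The miR-196 genes of the Hoxa, Hoxb and Hoxc clusters give products with a common seed, shown in capitals, whose known targets include Hoxb8. Their RefSeq sequences (GRCm38.p6) are given here because the Hoxb precursor lies in that stretch.
mmu-miR-196a-5p, from Mir196a-1, chr11:96265187-96265208, plus strand: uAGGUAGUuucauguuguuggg
mmu-miR-196b-5p, from Mir196b, chr6:52230129-52230150, minus strand: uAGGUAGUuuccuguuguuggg

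Of 18 noncoding genes of the Hox clusters present in the matrix, 9 had no count at all and 3 were tested, none of which passed between the sides. Hotairm1 stood at 1.89 ± 0.503 CPM on the denervated and 2.05 ± 0.534 CPM on the normal side (SD, n = 3), and Hotair and Hottip, the RNAs of the silent 5′ ends of Hoxc and Hoxa, had 0 counts.

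The partners and regulators of Hox proteins were expressed on both sides. All 9 genes of the TALE family, whose proteins bind DNA together with Hox proteins, were tested and none passed. Pbx2 had the smallest p, at 39.1 ± 2.74 CPM on the denervated and 44.5 ± 2.39 CPM on the normal side (SD, n = 3), with adjusted p = 0.299 in edgeR, followed by Meis3 with adjusted p = 0.455. Of 32 Polycomb genes, which keep Hox genes silent, 1 rose and none fell, a share near the 3.46% called among all tested genes. That gene was Asxl1, a subunit of a histone H2A deubiquitinase, at 119, 130 and 131 CPM in denervated libraries, against 102, 89.8 and 110 CPM in normal libraries. The log2 fold change was 0.34 ± 0.08 SE (adjusted p = 0.0402, edgeR with the block). In edgeR the call was lost without the block (adjusted p = 0.199), with library totals (0.0852) and without animal 892 (0.361). Limma on log2(TPM + 1) did not make the call (adjusted p = 0.241). DESeq2 made it with the block (adjusted p = 0.0176) and without the block (adjusted p = 0.0297).

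Of 20 Trithorax genes, which keep Hox genes active, 1 rose as well and none fell, again not far from that background share. Kdm6b, which removes the Polycomb mark H3K27me3 and is also known as an early response gene, stood at 640, 618 and 608 CPM in denervated libraries, against 438, 428 and 467 CPM in normal libraries. The groups were far apart, with a log2 fold change of 0.49 ± 0.08 SE (adjusted p = 0.00879, edgeR). That call needed the pairing in edgeR (adjusted p = 0.137 without it), while DESeq2 made it with and without the block. It was not made by limma on TPM (adjusted p = 0.0881). The median log2 fold change was 0.07 over the Polycomb list and 0.06 over the Trithorax list, against −0.02 over all tested genes.

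Among 11 tested retinoic acid genes, whose product is a known inducer of 3′ Hox genes in embryos, none passed. The retinol dehydrogenase gene Rdh10 came closest, at 11.1 ± 1.93 CPM on the denervated and 15.9 ± 1.81 CPM on the normal side (SD, n = 3 each), without overlap (log2 fold change −0.52 ± 0.15 SE, adjusted p = 0.0702, edgeR). Dhrs3, which reduces retinal, had adjusted p = 0.179. Of 10 tested homeobox and T-box genes of other families with roles in body position, none passed, with Irx3 (0.33 ± 0.11 SE, adjusted p = 0.119) and Irx4 (−0.43 ± 0.19 SE, adjusted p = 0.238) having the smallest p in edgeR.

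Dermal fibroblasts are known to carry Hox mRNAs, so their markers were read beside these results. The collagen gene Col1a1 did not exceed 0.581 CPM in denervated and 1.73 CPM in normal libraries, and Col1a2 did not exceed 0.918 and 1.57 CPM. Lum and Twist2 had 0 counts throughout. Of the 10 fibroblast markers 2 were tested and none passed. The summed CPM of the list, nearly all of it from Thy1, ran from 90.6 to 158 on the denervated and from 105 to 129 on the normal side. Per length, Hoxa7 at 19.7 to 32.3 TPM stood above Col1a1 and Col1a2, which reached 0.443 and 0.503 TPM at most. Col1a2, like most Hox genes, had lower denervated values in all 3 animals, with a log2 fold change of −1.11 ± 0.52 SE (adjusted p = 0.275, edgeR). It held only 5 to 32 counts in a library, and its part in the Hox differences was not tested. Thy1, the other tested marker, went the other way, at 0.14 ± 0.09 SE (adjusted p = 0.477, edgeR), and was lower in 1 of 3 animals. Schwann cell markers summed to 1.08 to 1.45 CPM in denervated and 0.786 to 2.76 CPM in normal libraries, with Sox10 at no more than 0.0467 CPM. Immune markers summed to 79.8 to 101 CPM in denervated and 55.8 to 97.4 CPM in normal libraries, and none of the 5 passed, though the fitted value of each was above 0, with Cd3e at 0.92 ± 0.39 SE (adjusted p = 0.232) and Cd74 at 0.28 ± 0.11 SE (adjusted p = 0.198) in edgeR. Skeletal muscle markers summed to 0.753 to 1.30 CPM in denervated and 1.5 to 2.36 CPM in normal libraries, without overlap and, like the summed Hox TPM, lower on the denervated side. Their sole tested gene, Mylpf, had a log2 fold change of −0.91 ± 0.47 SE (adjusted p = 0.326, edgeR). Endothelial markers summed to 1.08 to 1.31 CPM in denervated and 0.413 to 1.07 CPM in normal libraries, also without overlap but in the other direction. Sums of pericyte, melanocyte, Schwann cell and Merkel cell markers overlapped between the sides. The part of these cells in the Hox differences was not tested.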

How the data were processed

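The authors deposited a matrix of raw whole-number counts per gene symbol, a table of TPM, and per-library files with estimated counts (expected counts, not whole), TPM and lengths, per the file headers. A further deposited table holds the authors' log2 fold changes with p-values, scores (standard error and statistic) and a mean signal in normalised counts. STAR 2.6.1a, Salmon 0.11.2 and the mm10 build are listed in the submitters' processing notes. Which tool made the count matrix, with which strand setting and annotation, is not given in the sources used here, although the library kit is strand-specific per the labels' protocols. In the matrix, 26 rows have dates in place of gene names and were kept in the totals.

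Groups and animal numbers came from the titles. Per the labels' protocols each mouse gave both sides, so the main test was edgeR 4.0.16 (R 4.3.3) with the animal as block, TMM factors and the filterByExpr filter (at least 10 counts, total at least 15), leaving 12310 genes. Checked on log2 CPM (prior count 2), deviations from the means of the sides correlated at 0.356, 0.361 and 0.443 within animals, across genes. P-values had Benjamini-Hochberg adjustment and a threshold of 0.05. In the fit with the block, those between the sides measure how the side difference varied between 3 animals. Those between animals rest on the same residual spread, since each animal gave its opposite sides and no replicate of a side. SE was computed as the size of the log2 fold change divided by the root of F. Differences per animal used log2 CPM with the same prior count. The scripts were tested on simulated data. Alternatives were no block, library totals, DESeq2 size factors, other filters, DESeq2 1.42.0, estimated counts rounded to whole numbers, limma 3.58.1 on log2(TPM + 1) and log2(TPM + 0.1) where mean TPM reached 1, another threshold, and each animal left out. Fold changes of low genes are understated on the log2(TPM + pseudocount) scale. Where DESeq2 returned no adjusted p, none was filled in.

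Coordinates come from GENCODE M21 (mm10), which matched all 39 Hox genes by symbol. Members and lists were chosen with earlier results of these data known. Every Hox gene is counted, 1 is not reported by itself here, and expressed ones (at least 1 TPM in every library) are given per library. From other lists, up to 4 members that passed are named, or the 2 with the smallest p. Genes outside that rule (Gm53 and Mir196a-1 as neighbours of Hoxb9, Col1a1, Lum, Twist2, Sox10, Hotair and Hottip) were named after their values were seen.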

Additional observations from a re-analysis of the deposited data

How the results depend on the processing

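The paired fit called 426 genes in all, 820 at an adjusted p below 0.1, 987 with no filter on low counts, 0 with no replicate block, and 1 with limma on log2(TPM + 1) or log2(TPM + 0.1), and 248 to 976 when an animal was left out. Hox genes called between the sides numbered 0, against 1 at an adjusted p below 0.1 (Hoxa5), 2 with no filter (Hoxa5 and Hoxa3) and 0 to 2 when an animal was left out. Between animals, 4 Hox genes rather than 1 were called with no filter. Genes called in the fixed lists numbered 2, against 0 with no replicate block, 1 with library totals and 1 to 8 when an animal was left out. A minimum of 5 TPM left 5 expressed Hox genes instead of 15, and leaving out animal 890 gave 19 at 1 TPM. The causes of these shifts were not tested.

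Of 256 recomputed log2 fold changes of Hox genes, 232 kept their direction and did not pass the threshold, and 20 changed sign. Another 4 passed the threshold (Hoxa3 and Hoxa5, with no filter or without animal 899). Where DESeq2 gave no adjusted p, the value was counted as not passing, although it was not compared with the threshold. Hoxb9 turned to −0.016 with library totals, −0.0031 with estimated counts, −0.033 and −0.13 with limma on log2(TPM + 1) and log2(TPM + 0.1), and ran from −0.11 to 0.15 when an animal was left out. Hoxc8 turned to 0.0074 with DESeq2 size factors, 0.002 with no filter, 0.007 and 0.0083 in DESeq2 with and without the block, 0.0014 with estimated counts, and 0.07 and 0.041 without animals 892 and 899. Hoxc13 turned to 0.029 with no filter, 0.1 in DESeq2 with the block, 0.07 with estimated counts, and ran from −0.89 to 0.8 when an animal was left out (0.22 without animal 892). With an animal left out, Hoxa4 ran from −0.36 to 0.11, Hoxa9 from −0.1 to 0.63 and Hoxb3 from −0.41 to 0.2. The replicate block moved no call among Hox genes between the sides. As edgeR without the block called 0 genes in all, that says little. Over the count settings 17 to 20 of 21 Hox genes were below 0, and with limma 19 of 19, with medians from −0.43 to −0.31. DESeq2 gave an adjusted p to 1 of the 21 genes with the block and to 0 without it, so its count of 0 says little. Depth limits the 5′ genes: at 0 counts, levels of up to 0.312 CPM in the shallowest and 0.115 CPM in the deepest library remain possible.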
